A study of Mus musculus with 9 samples.

Results

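Open chromatin of mouse dendritic cells that overexpress Pcgf6 was set directly against that of cells with a Pcgf6 knockdown. The peak list of the overexpressing cells (OE) held 111488 peaks and that of the knockdown cells (HP109) held 170077, on chromosomes 1 to 19 and X. A peak with no overlap of at least 1 bp in the opposite list was taken as present at 1 extreme of Pcgf6 dose only. There were 70791 such peaks among the 281565 of the 2 lists, made up of 65516 in HP109 only and 5275 in OE only. The 4 peak lists of the series held 593227 peaks in all.

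The cells were primary dendritic cells of C57Bl/6 mice, grown from total bone marrow for 9 days with 20 ng/mL GM-CSF, a growth factor of myeloid cells. All cells, controls included, were transduced with a retrovirus on day 2 and sorted for the vector's human CD8 reporter together with CD11c. OE cells carried a vector that expresses Pcgf6 cDNA, and its control vector is named mi8. HP109 cells carried a hairpin RNA vector against Pcgf6, and its control vector is named LMP8. OE and HP109 therefore differ in vector as well as in Pcgf6, and the 2 differences cannot be told apart in a direct comparison; where it matters, the values of both controls stand beside the result. ATAC-seq, in which a transposase cuts accessible DNA and inserts sequencing adaptors, was run on 2 libraries per vector. A GM-CSF culture is a model of inflammatory dendritic cells made outside the animal, and CD11c is also carried by macrophages. The Pcgf6 level reached in either culture is not measured in these files.

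PCGF6 is the Polycomb-group RING finger protein that defines PRC1.6, a variant of Polycomb repressive complex 1. The complex contains MGA with MAX, E2F6 and L3MBTL2, which bring it to DNA, and it is best known for keeping germline genes silent. The series asks how PCGF6 restrains the activation of dendritic cells, which on activation secrete cytokines and present antigen to T cells.

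The 2 libraries of a vector stand behind 1 peak list, so there is no replicate spread, and no test between the conditions was possible. The peak caller's −log10 q and fold over background, both from the authors, describe a peak within its list. Read depth recovered from the peak values was 1.38 times as high for OE as for HP109 and 1.38 times as high for mi8. Of 12 genes fixed as dendritic cell markers, 11 had a peak within 1000 bp of a gene end in both lists. Itgax, which encodes CD11c, had −log10 q 70.5 in OE and 95.2 in HP109, and the transcription factor gene Spi1 had 57.9 and 101. Ccr7, the chemokine receptor of mature dendritic cells, had no end peak in either list.

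The DNA at stake is shown for 6 promoters, as the 250 bases before the RefSeq start site in build GRCm38.p6 (mm10). They were chosen from the genes discussed here for their roles, and capitals mark the bases that lie inside the deposited peak. Il12a and Ifnb1 encode activation cytokines, Cx3cr1 a chemokine receptor of myeloid cells, Elane the neutrophil elastase and Cbx6 a Polycomb protein; each of these promoters had a peak in HP109 and none in OE.
Il12a (chr3:68691174-68691423, plus strand): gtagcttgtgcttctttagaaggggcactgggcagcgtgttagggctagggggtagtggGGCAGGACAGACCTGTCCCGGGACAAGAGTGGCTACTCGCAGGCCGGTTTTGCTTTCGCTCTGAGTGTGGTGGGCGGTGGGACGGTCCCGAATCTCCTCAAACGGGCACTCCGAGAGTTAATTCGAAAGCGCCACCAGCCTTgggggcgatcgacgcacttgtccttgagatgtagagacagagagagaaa
Ifnb1 (chr4:88522795-88523044, minus strand): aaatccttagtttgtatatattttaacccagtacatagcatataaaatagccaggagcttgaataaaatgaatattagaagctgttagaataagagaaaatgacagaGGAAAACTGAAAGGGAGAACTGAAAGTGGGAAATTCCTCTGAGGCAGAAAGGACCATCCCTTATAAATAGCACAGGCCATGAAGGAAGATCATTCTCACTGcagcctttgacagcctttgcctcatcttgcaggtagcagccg
Cx3cr1 (chr9:120068297-120068546, minus strand): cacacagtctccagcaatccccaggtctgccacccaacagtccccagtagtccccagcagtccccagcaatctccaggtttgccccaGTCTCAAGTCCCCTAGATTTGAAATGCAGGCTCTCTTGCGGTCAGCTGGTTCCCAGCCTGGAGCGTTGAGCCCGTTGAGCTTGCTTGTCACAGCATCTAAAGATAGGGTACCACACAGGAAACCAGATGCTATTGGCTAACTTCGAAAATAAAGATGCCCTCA
Elane (chr10:79886062-79886311, plus strand): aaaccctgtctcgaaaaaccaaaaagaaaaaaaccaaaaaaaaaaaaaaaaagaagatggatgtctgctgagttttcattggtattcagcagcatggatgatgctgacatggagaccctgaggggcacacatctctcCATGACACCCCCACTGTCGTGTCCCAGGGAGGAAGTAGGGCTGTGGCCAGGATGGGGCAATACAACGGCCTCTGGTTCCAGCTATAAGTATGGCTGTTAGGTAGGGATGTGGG
Cbx6 (chr15:79834334-79834583, minus strand): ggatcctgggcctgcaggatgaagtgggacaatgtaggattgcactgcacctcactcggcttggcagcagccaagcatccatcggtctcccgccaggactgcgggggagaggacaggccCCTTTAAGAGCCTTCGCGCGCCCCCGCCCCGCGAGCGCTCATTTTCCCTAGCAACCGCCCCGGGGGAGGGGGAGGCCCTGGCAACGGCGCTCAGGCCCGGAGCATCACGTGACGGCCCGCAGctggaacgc
C1rb (chr6:124570180-124570429, plus strand): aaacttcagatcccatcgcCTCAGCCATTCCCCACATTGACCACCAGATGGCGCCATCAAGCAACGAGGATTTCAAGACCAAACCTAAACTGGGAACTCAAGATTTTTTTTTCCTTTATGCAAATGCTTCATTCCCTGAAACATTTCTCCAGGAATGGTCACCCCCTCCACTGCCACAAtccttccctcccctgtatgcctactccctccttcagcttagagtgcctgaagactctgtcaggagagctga

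C1rb, a complement protease gene, stands for the few promoters with a peak in OE and none in HP109. The Cbx6 stretch holds a CACGTG element, the sequence bound by MAX and MGA dimers, and a GGGCGG box. The Il12a stretch holds a GGGCGG box, and the Elane stretch holds GAGGAAGT, a sequence bound by the myeloid factor PU.1. None of the 9 motifs searched was found in the Ifnb1, Cx3cr1 or C1rb stretch. The search took exact letters only, so close variants were not counted. The Ifnb1 peak holds GGGAAATTCC, close to the NF-kB letters searched, and GAAAACTGAAA, close to those of the interferon response element. A missing match is thus not a missing site. In Cx3cr1 the peak had −log10 q 36.3 in HP109, 42.6 in mi8 and 20.7 in LMP8. The Elane promoter had a peak in HP109 alone of the 4 lists, with −log10 q 5.47.

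Pcgf6 itself (chromosome 19, 47033617 to 47050939, mm10) had end peaks in all lists. The strongest had −log10 q 55.7 in OE, 33.3 in mi8, 18.7 in HP109 and 10.3 in LMP8, with a fold over background of 18.7 in OE and 9.75 in HP109. Within each vector system the Pcgf6 vector had the higher value. Each list has its own scale, however, with a highest −log10 q of 185 in OE, 173 in mi8, 188 in HP109 and 132 in LMP8. The values at Pcgf6 were not corrected for this scale. The OE vector carries a Pcgf6 cDNA, and a peak list cannot separate reads from the cDNA from reads of the gene. All 15 genes of the PRC1.6 list, among them Mga, Max, E2f6, L3mbtl2, Ring1 and Rnf2, had end peaks in both OE and HP109.

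Open regions in the knockdown list alone outnumbered those in the overexpression list alone by far. Of the HP109 peaks, 38.5% (95% exact Clopper-Pearson interval 38.3 to 38.8) were absent from OE. Of the OE peaks, 4.73% (4.61 to 4.86) were absent from HP109. These intervals cover counting error only. On all 20 chromosomes the share was higher for HP109, from 36.2% on chromosome 17 to 40.1% on chromosome 11, against 4.01% on chromosome 7 to 6.35% on chromosome 10 for OE. With each list held to its strongest 111488 peaks, 18.1% of HP109 peaks were absent from OE and 15.7% of OE peaks from HP109. The imbalance was smaller there, but that setting kept every OE peak, down to −log10 q 1.31, and HP109 peaks down to 8.71 only. By recovered depth the shorter list was the deeper one, and mi8, of like depth to OE, held 170946 peaks. What depth does to the length of a list was not tested.

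The 2 lists shared 0.599 of the base pairs that either covered (the Jaccard index). The same index was 0.568 between OE and mi8, 0.690 between HP109 and LMP8 and 0.688 between the controls. The controls differed as well: 24.9% of mi8 peaks were absent from LMP8 and 5.97% of LMP8 peaks were absent from mi8. The index is bounded by the covered lengths, 35.3 Mb in OE, 51.2 Mb in HP109 and 55.9 Mb in mi8, and the share of OE peaks absent from mi8 was 4.56%, close to the 4.73% absent from HP109. All 4 lists were called against the same input library.

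Peaks present at 1 extreme only were narrow and weak. In HP109 their median width was 144 bp against 300 bp for shared peaks, and their median −log10 q was 6.56 against 28.7. In OE the widths were 131 and 236 bp, and the −log10 q values 4.74 and 15.8. Among HP109 peaks below −log10 q 5, 83.7% were absent from OE, whereas of 38976 peaks at 40 or more only 75 (0.192%) were. Among OE peaks the share was 18.3% below 5, and none of 23517 peaks at 40 or more was absent from HP109. A count of 0 there allows a share of up to 0.0157% by the exact interval.

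**Figure D1:**
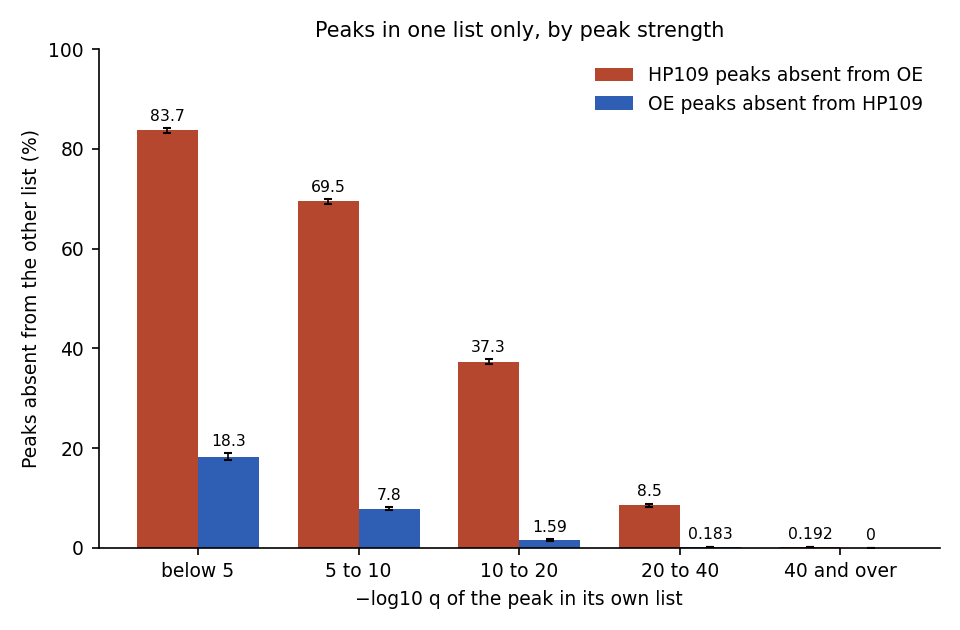
Share of peaks (%, vertical axis) that overlap no peak of the other list, by the −log10 q of the peak in its own list (horizontal axis); bars are HP109 (red) and OE (blue), and error bars are exact 95% intervals for counting error. The share runs from 83.7% to 0.192% in HP109 and from 18.3% to 0 in OE as peaks become stronger.

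Gene ends were the most alike part of the genome. Of HP109 peaks within 1000 bp of a gene end 25.7% were absent from OE, against 41.2% of those inside genes and 40.1% of those over 100 kb from any gene. Of OE peaks at gene ends 2.88% were absent from HP109. At like strength the shares were closer: among HP109 peaks with −log10 q from 20 to 40, 4.88% at gene ends and 8.88% inside genes were absent from OE.

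Among 21627 protein-coding genes, 1327 (6.14% of the genes) had an end peak in HP109 with no counterpart in OE, and 47 (0.217%) had the reverse. Both lists had an end peak at 12687 genes and neither at 7503. With equal numbers of peaks the counts were 502 and 294, and all 502 were among the 1327, as that setting only removes HP109 peaks. The 1327 genes had a median −log10 q of 7.06 at the end peak, and 61 reached 20 or more. An end peak was also present in both controls at 819 of them, in mi8 only at 265, in LMP8 only at 38 and in neither at 205. At 61.7% of these genes, then, OE was the 1 list of the 4 without an end peak.

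The strongest HP109-only gene end was that of Mlf1, a myeloid leukaemia factor, with −log10 q 52.6 in HP109, 50.1 in mi8 and 22.2 in LMP8. Rnase6, an antimicrobial ribonuclease of myeloid cells, had 49.5, 63.9 and 23.2 in that order. Map3k1, a kinase upstream of JNK signalling, had 43.7, 31.0 and 23.3. All 3 had strong peaks in each list but OE. Cxcr5, the chemokine receptor that leads cells to lymphoid follicles, had 36.1 in HP109, 19.0 in mi8 and 19.0 in LMP8. Chst13, a sulfotransferase of chondroitin chains, had 44.0, 26.1 and 21.1. The next were Myl10, Gsg1, Upb1, Dlx4, Sdk2, Gimap5 and Mageh1, with −log10 q between 34.7 and 30.2 in HP109 and a peak in both controls for each.

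Among 536 different genes on 21 lists of relevant pathways and cell types, 38 had an end peak in HP109 only, against 6.14% of all genes, and 1, Nkg7, in OE only. The share over all lists is thus near that of all genes. Of the 38, 24 had an end peak in both controls, 8 in mi8 only, 1 in LMP8 only and 5 in neither. With equal numbers of peaks 17 of the 38 were still in HP109 only, and 14 listed genes were in OE only. That setting removes no OE peaks and keeps HP109 peaks down to −log10 q 8.71. A gene in HP109 only therefore stays so wherever its end peak passes that cut. Of the 14 only Nkg7 was in OE only in the full lists.

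Cytokine genes formed the activation group with the highest share. Of 34 listed cytokines and chemokines, 5 (14.7%; 6.14% over all genes) were in HP109 only by their end peaks, 27 in both lists and none in OE only. Il27, whose product forms interleukin 27, had −log10 q 15.02 in HP109, 24.03 in mi8 and 11.5 in LMP8. Cxcl9, a chemokine that draws T cells, had 10.8, 11.5 and 5.36. Il12a, the p35 subunit of interleukin 12, had 9.96, 7.68 and 8.89. Ifnb1, interferon beta, had 9.69, 8.41 and 7.65. Ccl7, a chemokine for monocytes, had 22.7, 36.8 and 27.03. Each of these 5 genes had some end peak in both controls, and OE alone had none. In the narrower promoter window, however, Ifnb1 had no peak in LMP8 and Cxcl9 had none in mi8. All 5 stayed in HP109 only with equal numbers of peaks, which was fixed once their end peaks passed the cut of 8.71. Csf3 and Il1b, with an end peak in both full lists, were in OE only once weaker HP109 peaks were removed. 

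Other activation genes were mostly shared. Ciita, the transactivator of MHC class II genes, was the 1 gene of 26 in antigen presentation with an end peak in HP109 only, with −log10 q 22.0 in HP109, 16.9 in mi8 and 7.57 in LMP8. Of 21 costimulation and maturation genes, Cd70, a ligand that costimulates T cells, had 3.89 in HP109 and 6.61 in mi8, and Slamf1 had 6.63 in HP109, 4.92 in mi8 and 7.24 in LMP8. The lists of NF-kB and Toll-like receptor signalling (37 genes), interferon-stimulated genes (38), dendritic cell lineage factors (27), oxidative phosphorylation (33) and the cell cycle (32) had no gene end in HP109 only or in OE only.

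Among germline genes, the textbook targets of PRC1.6, 2 of 30 (6.67%) had an end peak in HP109 only, near the 6.14% of all genes. Mov10l1, a helicase of the piRNA pathway, had −log10 q 8.64 in HP109 and 3.63 in LMP8, and Meiob, a meiosis protein, had 6.96 in HP109, 6.61 in mi8 and 7.24 in LMP8. A further 18 germline genes had an end peak in neither list. Of 30 developmental Polycomb targets, Dlx4, Foxa2, Foxd3 and Hoxc10 (13.3%; 6.14% over all genes) were in HP109 only by their end peaks, with −log10 q 32.1, 7.26, 3.06 and 6.63. Hoxc10 was the 1 gene of the 4 with a peak in neither control. Of 22 other Polycomb genes 2 (9.09%) were in HP109 only: Cbx6 had 6.73 in HP109 and 4.91 in mi8, and Bcor, a corepressor of another variant complex, had 9.05 in HP109, 9.58 in mi8 and 5.96 in LMP8. Ash2l, a core subunit of histone H3 lysine 4 methyltransferases, had 10.8, 22.2 and 9.25. Of the genes named in this paragraph, only Dlx4, Bcor and Ash2l stayed in HP109 only with equal numbers of peaks. The developmental targets Gata6, Hoxa10 and Pax6 and the germline gene Tdrd1 were then in OE only.

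Markers of granulocytes and mast cells had the highest share of all lists at gene ends. Of 23 such genes, 7 (30.4%; 6.14% over all genes) were in HP109 only by their end peaks: Cxcr2, S100a9, Ctsg, Ngp, Elane, Kit and Hdc. An end peak was present at 12 of the 23 in HP109, 11 in mi8, 10 in LMP8 and 5 in OE, while 11 had one in neither OE nor HP109. Cxcr2, a chemokine receptor of neutrophils, had −log10 q 23.5 in HP109, 22.4 in mi8 and 19.2 in LMP8. S100a9, a calcium-binding protein of neutrophils and monocytes, had 21.1, 23.9 and 16.7. With equal numbers of peaks Cxcr2, S100a9, Ctsg and Ngp stayed in HP109 only, as their end peaks passed the cut of that setting. Gata2, with an end peak in both full lists, was then in OE only. In these bulk samples a smaller share of cells of another type and less open chromatin per cell cannot be told apart, and the part of such cells in the cytokine and other gene groups was not tested. Of 20 lymphoid and plasmacytoid markers 4 (20.0%; 6.14% over all genes) were in HP109 only, among them Ms4a1 (−log10 q 3.89), Cd79b (4.77) and Cd3g (3.78). So were 3 of 16 erythroid and megakaryocyte markers (18.8%), Hbb-bs (7.81), Hba-a1 (3.07) and Itga2b (3.33). The same held for 3 of 15 stroma markers (20.0%), Pdgfra (6.42), Thy1 (9.22) and Krt18 (5.76). Cd79b, Cd3g and Hba-a1 had an end peak in neither control. Of the genes just named only Thy1 passed that cut and stayed in HP109 only with equal numbers of peaks. Ccr9, Nkg7, Epcam and Col1a1 of these lists were then in OE only. Of 22 macrophage markers only the scavenger receptor gene Marco was in HP109 only, with 18.7 in HP109, 17.7 in mi8 and 12.8 in LMP8.

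**Figure D2:**
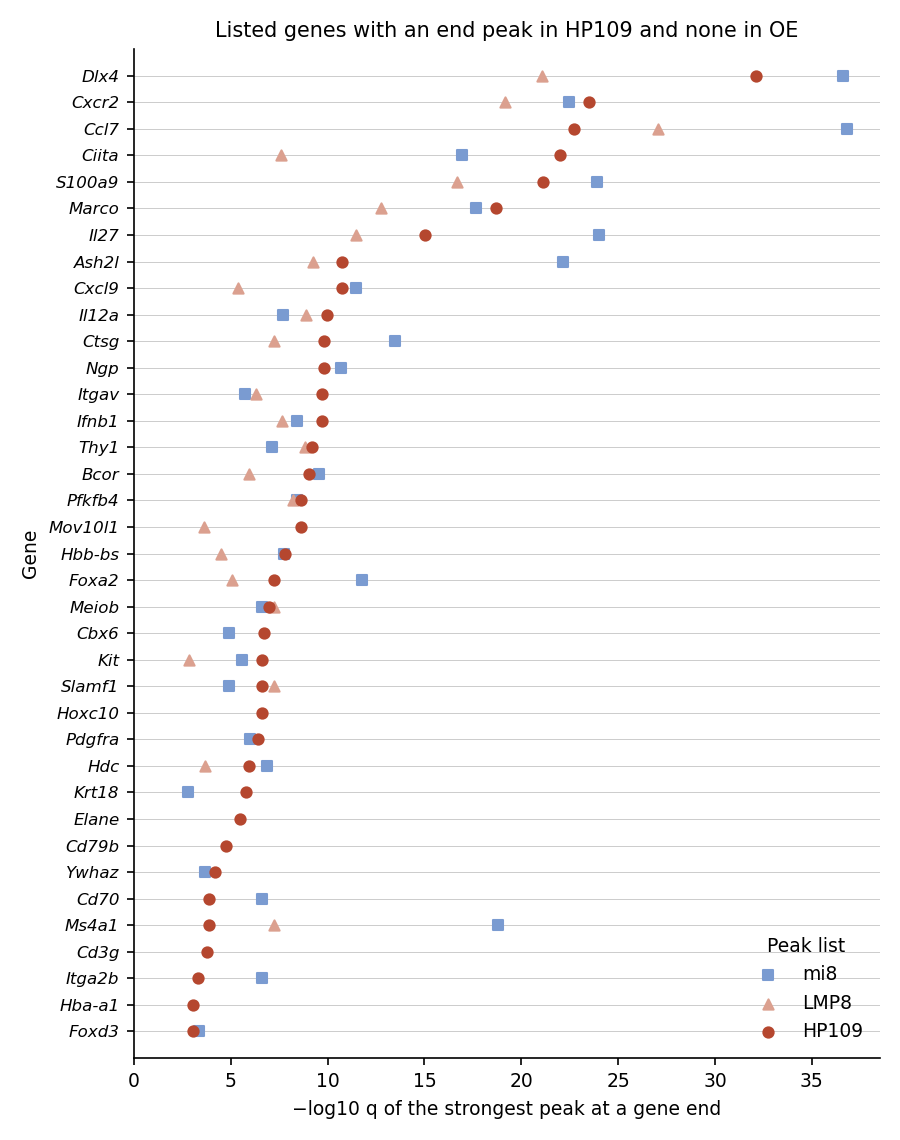
Strongest end peak (−log10 q, horizontal axis) of 37 of the 38 listed genes whose end peak was in HP109 but not in OE, in HP109 (red circles), mi8 (blue squares) and LMP8 (pale triangles); a missing symbol means no peak, and each list has its own scale of −log10 q. Genes run from Foxd3 at 3.06 to Dlx4 at 32.1 in HP109, and 23 of the 37 shown have a peak in both controls.

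The 47 genes with an end peak in OE only had a median −log10 q of 5.06, and none reached 20. The strongest were the olfactory receptor genes Olfr1394 (14.3 in OE and 9.58 in mi8) and Olfr457 (13.9 and 6.61), neither of which had a peak in LMP8. Pik3ip1, an inhibitor of PI3-kinase, had 8.48 in OE and no end peak in any other list. Lrp2bp (8.63), Ipo5 (7.14) and Lgals12 (6.71) likewise had an end peak in OE alone. Msmp, Taar7a, Gm5174 and Adam25 had one in mi8 too, and C1rb and Themis, a T cell signalling protein, in both controls. Nkg7, a granule protein of cytotoxic cells, had 5.10 in OE and 8.86 in mi8. In all, 12 of the 47 had an end peak in both controls, 22 in mi8 only and 13 in neither.

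By the number of peaks with a summit inside the gene, 10613 genes (49.1% of 21627) had more in HP109 and 1070 (4.95%) had more in OE. With equal numbers of peaks, a setting that only removes HP109 peaks, the counts were 4245 and 4495. The cause of the direction over all genes was not tested.

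Fn1, the extracellular matrix protein fibronectin, had 56 peaks inside its span in HP109, 1 in OE, 3 in mi8 and 3 in LMP8. The HP109 peaks covered 20.5% of the gene, had a median −log10 q of 5.36 and lay in a run of 64 consecutive HP109-only regions over 74.4 kb, the longest of either list. This density of weak peaks was seen in no other list, and 8 of the 56 were among the strongest 111488. Plxdc2, a transmembrane receptor, had 109 peaks in HP109, 36 in OE, 66 in mi8 and 58 in LMP8. Meak7, an activator of mTOR signalling, had 17 in HP109, none in OE, 1 in mi8 and 2 in LMP8, although an end peak was present in both lists (−log10 q 119 in HP109 and 100.2 in OE). Runs of 35 HP109-only regions also lay at Tcof1 and at Meak7, and 1 of 33 at Sarnp.

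Fn1, Plxdc2 and Meak7 had the fewest peaks in OE of the 4 lists, and so had 6 other genes of this direction. Atp2b1, a calcium pump of the plasma membrane, had 66 peaks in HP109, 20 in OE, 103 in mi8 and 65 in LMP8. Lpp, an adhesion scaffold, had 128, 75, 132 and 112 in that order, and Arhgap26, a regulator of small GTPases, had 116, 69, 114 and 95. Tenm4 had 81, 31, 74 and 55, Tbxas1, the thromboxane synthase, 92, 44, 88 and 76, and the transcription factor gene Creb5 98, 52, 100 and 78. HP109 had more peaks than its own control LMP8 in each of the 6, from 66 against 65 at Atp2b1 to 81 against 55 at Tenm4, and it had the most of the 4 lists in Tenm4, Tbxas1 and Arhgap26. In Atp2b1 the 2 lists had 20 peaks each when held to equal numbers. HP109 and OE then had 56 and 52 in Creb5, 77 and 69 in Arhgap26 and 89 and 75 in Lpp. The counts were 56 and 44 in Tbxas1 and 50 and 31 in Tenm4.

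In the opposite direction, Slc7a2, a transporter of arginine and other cationic amino acids, had 34 peaks in OE, 12 in HP109, 15 in mi8 and 12 in LMP8. Hif1a, the oxygen-regulated subunit of the HIF-1 transcription factor, had 30, 15, 14 and 11 in that order. Fzr1, an activator of the anaphase-promoting complex that holds cells in G1, had 10, 2, 3 and 2. In these 3 genes OE stood above both controls, and HP109 had no fewer peaks than LMP8. Cd274, which encodes the T cell inhibitory ligand PD-L1, had 18, 11, 12 and 12, and Cdkn1a, the p21 inhibitor of the cell cycle, had 7, 3, 3 and 4. Nabp1 had 11, 6, 6 and 5, Egln3, a HIF prolyl hydroxylase, 12, 8, 12 and 10, and Lilr4b, an immunoglobulin-like receptor of leukocytes, 7, 2, 5 and 6. All 8 had more peaks in OE with equal numbers too, but only HP109 peaks were removed there, so this outcome was fixed. The counts were 34 against 4 at Slc7a2 and 30 against 9 at Hif1a. The longest runs of OE-only regions lay at Slc7a2 (12 regions over 12.6 kb), Hif1a (11 over 10.9 kb) and Fzr1 (10 over 9.995 kb). Runs of 8 lay at Egln3 and Cdkn1a.

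**Figure D3:**
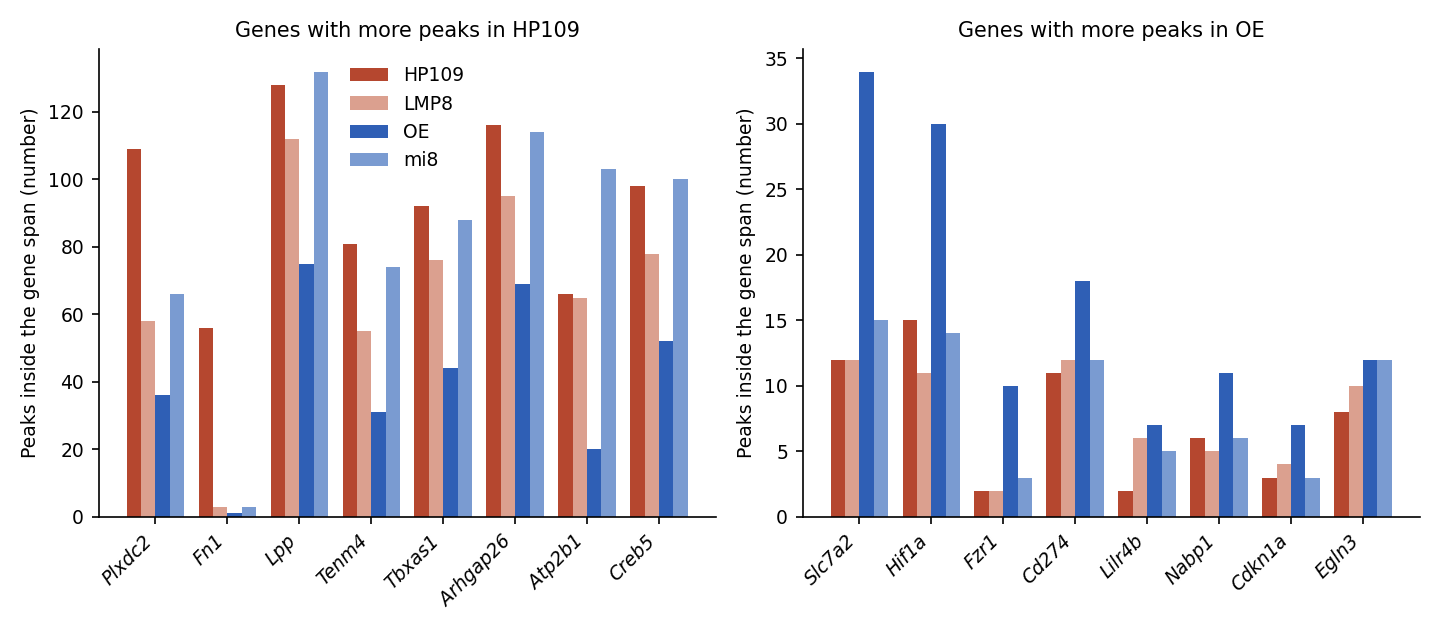
Number of peaks with a summit inside the gene span (vertical axes, starting at 0) in HP109, LMP8, OE and mi8, for the 8 genes with the largest excess in HP109 (left) and in OE (right). Fn1 has 56 peaks in HP109 and 1 to 3 elsewhere, and Slc7a2 has 34 in OE and 12 to 15 elsewhere.

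Of 15188 genes with a peak inside the span in either list, some had peaks in 1 list only. No OE peak lay inside 1827 genes that had one in HP109, and no HP109 peak inside 312 genes that had one in OE. At least 5 HP109 peaks stood against no OE peak in 23 genes, among them Meak7, Gtf3c1 and Raly (11 each) and Cadm4 (8). No gene had 5 or more OE peaks and no HP109 peak. Gtf3c1 had 4 peaks in mi8 and 2 in LMP8, and Raly had 5 and 4.

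The strongest single peaks were in the controls too for HP109 and were weak or absent there for OE. The strongest HP109 interval absent from OE lay in Myo5c (chromosome 9, 75256184 to 75256418), with −log10 q 63.6 in HP109, 52.2 in mi8 and 23.3 in LMP8. The next lay 298.6 kb from Zfhx3 (63.5), 4.74 kb from Picalm, a clathrin adaptor gene (58.7), 13.2 kb from the scavenger receptor gene Cd36 (58.7) and inside Itgam, the integrin CD11b (54.1). The intervals near Picalm and Cd36 were 2381 and 2910 bp wide. All 8 strongest, with those in Rgs10, Srgap2 and Dgat1, had a peak in both controls, with −log10 q of at least 17.4. The strongest OE interval absent from HP109 lay in 4930503L19Rik, with 36.6 in OE, 3.83 in mi8 and 4.07 in LMP8. The next fell in Parp14, an interferon-induced ADP-ribosyltransferase (chromosome 16, 35832811 to 35833055), with 36.0 in OE, 10.1 in mi8 and 4.07 in LMP8. The interval 4.95 kb from Tnfrsf23, a decoy receptor, had 31.5 in OE and no peak in any other list. The others lay in Ankhd1 or near Helt, Rad23b, Vmn1r33 and Tlr4. At all 8 the control value was at most 10.1 or there was no peak.

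Gene groups differed in how many nearby regions were in 1 list only. Merging the 2 lists gave 172965 regions, of which 161772 lay within 100 kb of a gene. Of these, 37.8% were in HP109 only and 2.97% in OE only. The HP109-only share was 52.1% (88 of 169 regions) near developmental Polycomb targets, with Dlx2 (12 of 25), Lhx2 (9 of 15) and Foxa2 (7 of 11) among the highest counts. It was 49.6% (59 of 119) near granulocyte and mast cell markers and 47.7% (327 of 686) near adhesion and matrix genes, where Fn1 held 62, Cd44 51 and Tgm2 32. Cytokine genes at 37.3% and PRC1.6 genes at 36.9% lay near the share of all genes. NF-kB and Toll-like receptor genes at 29.1%, interferon-stimulated genes at 30.1% and antigen presentation genes at 31.0% lay below it. With equal numbers of peaks the HP109-only share was 15.8% near all genes, 22.9% near developmental Polycomb targets, 23.1% near granulocyte and mast cell markers, 19.5% near adhesion and matrix genes, 19.8% near cytokine genes and 10.9% near NF-kB and Toll-like receptor genes. The OE-only share was then 13.5% near all genes and 19.05% near developmental Polycomb targets, so that HP109-only minus OE-only regions came to 3.81% of the regions near these targets and 2.25% near all genes. The same net share was 12.8% near granulocyte and mast cell markers, 8.63% near cytokine genes and 5.38% near adhesion and matrix genes.

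Glycolysis and HIF genes were the 1 list with many regions in OE only. Of their 502 regions 72 (14.3%) were in OE only and 113 (22.5%) in HP109 only. The next highest OE-only share was 6.62%, near enzymes of H3K4 and H3K27 methylation. The OE-only regions lay mostly at 3 genes of the hypoxia response, singled out after their values were seen: Hif1a held 26 of its 57 regions, Vegfa, a growth factor for blood vessels, 20 of 40, and Egln3 14 of 40. In the other 26 genes of the list 3.29% of regions were in OE only and 26.8% in HP109 only. Of these, Slc2a1, a glucose transporter, held 5 OE-only regions of 30, and Hk2, Pfkp, Pfkfb3, Pfkfb4, Pdk1, Ddit4 and Egln1 held 1 each. With equal numbers of peaks 28.9% of the regions of this list were in OE only against 13.5% near all genes. Genes outside this list were also singled out after their values were seen. Cd274 held 12 OE-only regions of 23, and Nos2, the inducible nitric oxide synthase, 6 of 11. Csf2rb, a chain of the GM-CSF receptor, held 7 of 24. Cdkn1a, of the cell cycle list, held 8 of 16, and Zeb2, of the dendritic cell lineage list, 12 of 137.

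**Figure D4:**
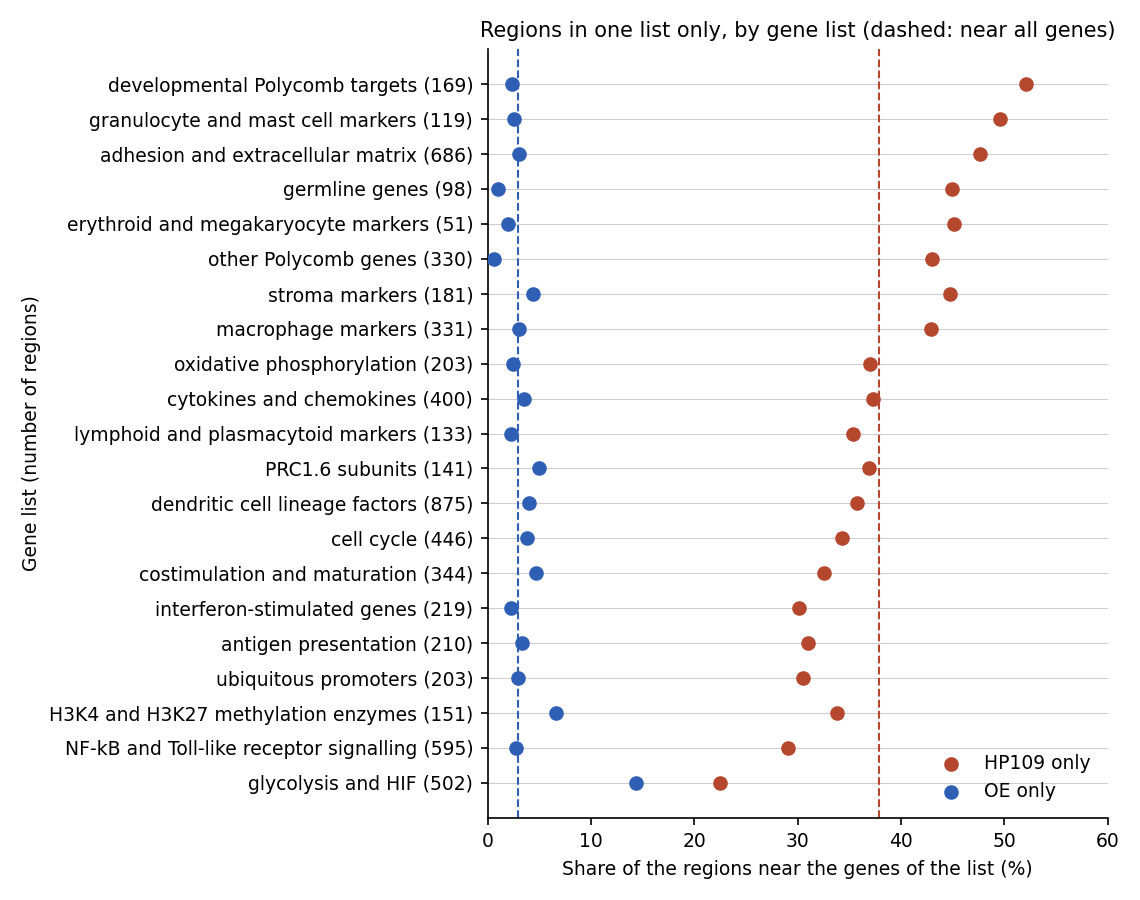
Share of regions near the genes of each list (%, horizontal axis) that are in HP109 only (red) or OE only (blue), for 21 gene lists ordered by the difference, with the number of regions in brackets; dashed lines give the shares near all genes, 37.8% and 2.97%. Glycolysis and HIF genes have the highest OE-only share, 14.3%, and developmental Polycomb targets the highest HP109-only share, 52.1%.

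The control lists show where the extremes depart from the middle. Of the 65516 peaks in HP109 only, 45.1% had an overlapping peak in both controls, 25.01% in mi8 only, 4.62% in LMP8 only and 25.2% in neither. For the 15497 of them with −log10 q of at least 10, 79.6% were in both controls, and for the 2623 with at least 20, 95.2%. The strong part of the difference therefore consisted mostly of regions open in 3 lists and without a peak in OE. Strong HP109 peaks were also more often shared with OE. The share of all HP109 peaks of these strengths that lay in both controls was not computed. Whether the rise only follows peak strength was therefore not tested. Of the 5275 peaks in OE only, 18.0% were in both controls, 30.9% in mi8 only, 4.06% in LMP8 only and 47.1% in neither. Among the 425 with at least 10, 37.9% were in neither control and 42.1% in mi8 only.

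**Figure D5:**
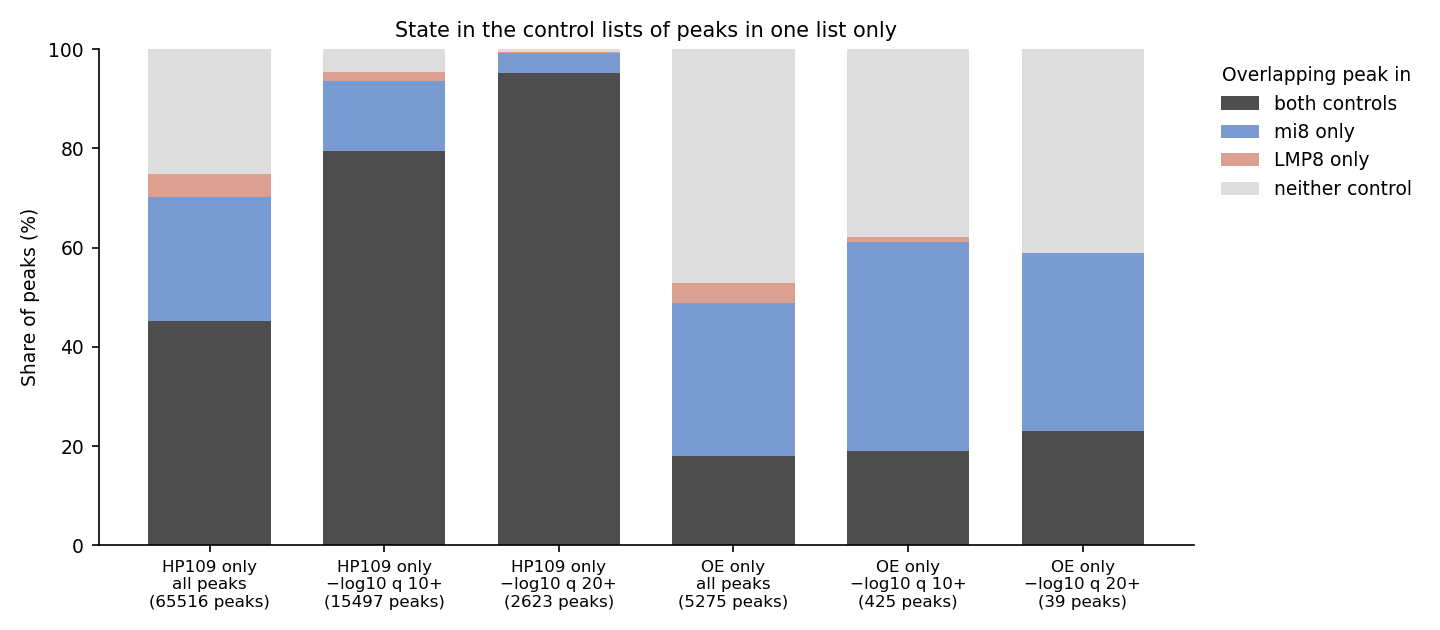
Share (%, vertical axis) of peaks in HP109 only or in OE only that overlap a peak in both controls, in mi8 only, in LMP8 only or in neither, for all peaks and for those with −log10 q of at least 10 and 20; the number of peaks stands under each bar. The share in both controls is 45.1%, 79.6% and 95.2% for HP109-only peaks and 18.0% to 23.1% for OE-only peaks.

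Promoter windows of RefSeq, 250 bp before to 50 bp after each start site, gave 21044 windows of 17273 genes. A peak was in HP109 only at 858 windows (4.08%) and in OE only at 20 (0.095%), against 11120 with peaks in both lists and 8882 with none. Promoters in HP109 only held a median of 14 CpG dinucleotides, near the 13 of all windows. This lay between the 22 of promoters open in both lists and the 4 of promoters open in neither. The median was 4 in the 20 OE-only windows. Among listed genes, Il12a, Ifnb1, Cxcl9 and Elane had a promoter peak in HP109 only. So had Tlr5, Tlr6 and Ikbke, which act in Toll-like receptor signalling. Csf3r, the receptor of granulocyte colony-stimulating factor, and Kdm2b, a Polycomb recruiter, were in the same state. In the wider gene-end windows all 37 NF-kB and Toll-like receptor genes, Tlr5, Tlr6 and Ikbke included, had a peak in both lists. The genes named are examples, and the share of listed promoters was not set against the 4.08% of all windows.

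Motifs were searched on both strands of these windows as a description, and a match is not a bound site. The Max and Mga E-box CACGTG was in 8.62% of HP109-only promoters, 10.6% of those open in both lists and 7.91% of all. The E2F sequence TTCCCGC was in 6.76%, 8.88% and 6.02% in that order, and the GC box GGGCGG in 56.9%, 66.8% and 46.7%. The cAMP response element TGACGTCA was in 0.932% of HP109-only promoters (95% exact interval 0.403 to 1.83), 3.44% of those open in both and 2.26% of all. The PU.1 sequence GAGGAAGT was in 3.96%, 3.44% and 3.15%, and the interferon response element (GAAA, any 2 bases, GAAA) in 3.38%, 3.13% and 3.38%. AP-1 (TGANTCA), NF-kB (GGGA, any base, TTTCC) and the Ets and Irf element (GGAA, any 2 bases, GAAA) were in 6.41%, 0.583% and 3.03% of HP109-only promoters, against 7.04%, 0.428% and 2.55% of all. TGANTCA does not match within TGACGTCA, whereas the interferon and the Ets and Irf elements can share bases.

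Of 1005 miRNA hairpins, 86 overlapped a peak in both lists, 10 (0.995%) in HP109 only and none in OE only. Mir21a, a miRNA of myeloid and activated cells, had −log10 q 3.89 in HP109 and 3.36 in mi8, and Mir9-2 had 20.2 in HP109, 18.8 in mi8 and 11.4 in LMP8. Their mature sequences from RefSeq are given with the seed (bases 2 to 8) in capitals, since the seed sets which messages a miRNA can pair with; the 4 seeds differ.
mmu-miR-21a-5p: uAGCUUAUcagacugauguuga
mmu-miR-21a-3p: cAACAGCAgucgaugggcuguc
mmu-miR-9-5p: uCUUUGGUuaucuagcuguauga
mmu-miR-9-3p: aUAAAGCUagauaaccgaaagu

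The nearest OE peak lay 1.14 kb from the Mir21a hairpin and 0.332 kb from that of Mir9-2. Mir301b (4.58), Mir7013 (3.38) and Mir7014 (9.96) had a peak in HP109 and in no other list.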

How the data were processed

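ATAC-seq peak lists of 4 retroviral vectors were used, each made from 2 libraries and called against 1 input library, per the labels. BWA, Picard and MACS2 with build mm10 made the lists, per the submitters' processing notes. Not given in the sources used here were versions, thresholds and the depth behind the word downsample in the list names. The deposited fold is a ratio to the local background, and the deposited −log10 p and −log10 q state how far a summit lies above it; the deposited score is a scaled −log10 q.

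Lists were compared with Python 3.11.15, numpy 2.4.6, pandas 2.3.3 and scipy 1.17.1, and plots made with matplotlib 3.10.9. Peaks on chromosomes 1 to 19 and X were kept (25 OE and 28 HP109 peaks lay elsewhere), and no interval was listed more than once. Overlap needed 1 bp. The summit pileup and background were recovered from fold and p for 100% of peaks (within 0.001 of the printed −log10 p), with a median pileup of 25 reads in OE and 21 in HP109, and gave relative depth. The overlap code was tested on simulated peaks.

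Genes were the 21627 protein-coding genes of a RefSeq table of GRCm38.p6, the assembly of mm10, without strand. A gene end means either end ± 1000 bp, and a gene counts as being in 1 list only where its end peaks overlap no peak of the other list. Regions went to the nearest gene span within 100 kb. Of 545 list entries 542 were found; Cd58, Cxcl11 and Trac were not. Exons and introns, and the sequence of peaks outside promoters, were not analysed here. Members, lists and comparisons were chosen with earlier results of these data known. Genes were named by rule: the 12 strongest end peaks in each direction, listed genes in 1 list only, the 8 largest differences in peaks inside the gene, the 8 strongest single peaks, and Pcgf6; others were named from their lists. Alternatives varied overlap, strength, window and list length. With 1 list per vector no test was run. A listed gene of the 38 in HP109 only is not reported here by name and is left out of the plot of end peaks.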

Additional observations from a re-analysis of the deposited data

How the results depend on the processing

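No paired analysis was possible because each vector has 1 peak list for both libraries, and for the same reason no replicate could be left out. Holding each list to its strongest 111488 peaks moved most values: 18.1% of HP109 peaks were absent from OE and 15.7% of OE peaks from HP109, the Jaccard index was 0.654, gene ends in HP109 only numbered 502 and in OE only 294, and genes with more peaks numbered 4245 for HP109 and 4495 for OE. More HP109-only than OE-only regions were then near 12 of 21 gene lists (21 otherwise), and the net HP109-only share turned negative near 9: H3K4 and H3K27 methylation enzymes (-6.78%), costimulation (-1.13%), NF-kB and Toll-like receptors (-2.73%), glycolysis and HIF (-20.2%), dendritic cell lineage factors (-2.91%), the cell cycle (-3.57%), oxidative phosphorylation (-5.67%), ubiquitous promoters (-7.69%) and erythroid markers (-6.06%). Fewer HP109 peaks entered that setting by construction. The HP109 share absent from OE was 43.5% when 50% of a peak had to be covered, 34.3% when a peak within 250 bp counted, 36.6% with −log10 q of at least 5 in both lists and 14.98% for peaks of at least 10; the OE share was 6.02%, 3.78%, 4.81% and 0.615% in that order. With at least 5 the Jaccard index was 0.608. In promoter windows, an alternative added after seeing the data, 674 genes were in HP109 only and 12 in OE only. The share in both controls, for peaks of at least 10, an alternative also added later, was 79.6% for HP109-only and 19.1% for OE-only peaks. Gene end counts with windows of 500 and 2500 bp or −log10 q of at least 5 stayed within 1.5 times. The median pileup at a summit was 25 reads in OE and 21 in HP109, and what depth does to weak peaks was not tested.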
